A study of Homo sapiens with 6 samples.

Results

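The cytosolic ribosomal protein genes encode the proteins of the 40S and 60S subunits of the ribosome that translates nuclear mRNA. They were taken here as every protein-coding gene whose symbol is RPL or RPS followed by a number, with or without one of the paralog endings A, X, L or L1, plus RPLP0, RPLP1, RPLP2, RPSA and RPL36AL. S6 kinases and read-through genes with a hyphen in their name were left out. The rule used names only and found 85 genes of the 58825 in the table, 32 of the small subunit and 53 of the large subunit. The cells were MDA-MB-231, a human breast cancer line of basal type that lacks the oestrogen receptor. The treated group received DSF/Cu, that is disulfiram, an aldehyde dehydrogenase inhibitor long used against alcohol dependence, together with copper, at 0.2 µM for 24 h, and the control group received DMSO, the solvent, for the same time. Each group held 3 libraries of poly(A) RNA, and each library pooled the cells of 3 wells. No group received disulfiram or copper alone, so the parts of the combination cannot be told apart, and both groups are the same line. The labels do not say whether the 3 repeats were separate cultures, so each p-value reflects only how far these libraries vary, part of which could be technical.

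Ribosomal protein mRNAs are among the most abundant in growing cells, and each subunit needs its proteins in fixed proportions. Most of these mRNAs begin with a C followed by a run of pyrimidines, the 5′ terminal oligopyrimidine (TOP) tract, through which mTOR and LARP1 control how strongly they are translated and how long they last. Ribosomal proteins that are made in excess are normally degraded, and some of them, first of all RPL5 and RPL11, bind MDM2 when ribosome assembly is disturbed.

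The windows around the annotated transcription start are given for 6 members on which the comparisons below turn: the paralog RPL22L1 and its parent RPL22, the paralog RPS27L and its parent RPS27, and RPL39 and RPL36, which lay at the low end of the family. Each is from RefSeq on GRCh38.p14, written 5′ to 3′ on the strand of the gene, with 40 bases before the annotated start and 15 bases from it. Capitals mark the unbroken pyrimidine run that holds the start.
RPL22L1: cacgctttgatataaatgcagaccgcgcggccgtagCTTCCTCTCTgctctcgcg
RPL22: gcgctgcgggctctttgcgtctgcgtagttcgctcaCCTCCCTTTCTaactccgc
RPS27L: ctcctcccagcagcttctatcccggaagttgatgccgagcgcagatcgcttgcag
RPS27: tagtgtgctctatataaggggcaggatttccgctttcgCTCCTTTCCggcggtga
RPL39: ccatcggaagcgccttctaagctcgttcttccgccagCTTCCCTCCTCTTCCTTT
RPL36: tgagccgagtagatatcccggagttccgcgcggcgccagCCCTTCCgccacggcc
These windows lie at chr3:170870181-170870235 (minus strand) for RPL22L1, chr1:6199581-6199635 (minus) for RPL22, chr15:63157463-63157517 (minus) for RPS27L, chr1:153990722-153990776 (plus) for RPS27, chrX:119791616-119791670 (minus) for RPL39 and chr19:5690255-5690309 (plus) for RPL36. RPS27L had no pyrimidine at its start, while its parent RPS27 had a run of 7 from the start onward. RPL22L1 and RPL22 had runs of 6 and 7. RPL39 had a run of 19, which continued past the window.

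A start window was found in RefSeq for 68 members. Of these, 47 (69.1%) had a C at the annotated start within a pyrimidine run of at least 5 counted from the start, against 5.14% of all 27305 genes with a window. The sequence CCGGAAG, searched on both strands of a window of 250 bases before the start and 50 from it, was found in 35.3% of the members and 12.2% of all genes, and TATAAA in 10.3% of the members and 14.0% of all genes. A match describes the letters only.

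The libraries held between 55563223 and 61633168 counts under DSF/Cu and between 62165212 and 70883177 under DMSO. The first principal component separated the treatments and held 55.4% of the variance. HMOX1, HSPA1B and MT1X, known to respond to oxidative stress, heat shock and metals, were higher under DSF/Cu by 5.40, 6.31 and 4.46 on the log2 scale. All 10 markers of the basal, mesenchymal-like line were detected. They summed to 7475 to 8136 CPM (counts relative to library size) under DSF/Cu and 7802 to 8059 under DMSO. By edgeR 3 of the 10 were raised and 4 lowered, where 18.5% of all tested genes were raised and 16.8% lowered. Of 8 luminal markers only ESR1 and TFF1 stayed under 1 CPM in every library. The luminal list summed to 172.8 to 216.1 CPM under DSF/Cu and 176.2 to 185.0 under DMSO. Of 6 immune markers 3 had no count in any library, CD3E of T cells and LYZ among them, and the list summed to 125.2 to 173.3 CPM under DSF/Cu and 94.5 to 182.0 under DMSO, nearly all of it CD68. Of 8 markers of stroma, endothelium and fat, DCN, LUM, CDH5 and ADIPOQ had no count, and the list summed to 6.35 to 7.47 CPM under DSF/Cu and 2.12 to 3.55 under DMSO. It was higher in every treated library, mostly through COL1A1, which was called raised, as was CD14 of the immune list (log2 changes of 1.42 and 2.61, edgeR adjusted p = 0.011 each). The part of these markers in the results was not tested. The 20 most counted genes took 15.1% ± 0.745 of the counts under DSF/Cu and 10.1% ± 0.239 under DMSO (SD, n = 3 each). The TMM factors of edgeR, by which library totals were multiplied, were 0.916 to 0.952 under DSF/Cu and 1.06 to 1.08 under DMSO. Levels below are TMM-scaled CPM unless another unit is named, and since these are bulk samples, fewer expressing cells and less RNA per cell cannot be told apart.

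Taken as one block, the family held nearly the same share of the library in both groups. It took 5.49%, 5.60% and 5.40% of all gene counts in the DSF/Cu libraries and 5.26%, 5.45% and 5.52% in the DMSO libraries. The groups overlapped, and the means were 5.50% ± 0.0989 and 5.41% ± 0.135 (SD, n = 3 each). With the 20 most counted other genes taken out of the denominator, the share was 6.34% to 6.56% under DSF/Cu and 5.83% to 6.15% under DMSO, with no overlap. As a share of summed FPKM, which weights short genes more, the order turned, with 5.37% to 5.58% under DSF/Cu and 5.76% to 5.89% under DMSO. The small and large subunit moved together, with small-subunit counts at 0.598, 0.571 and 0.580 of the large-subunit counts under DSF/Cu and 0.575, 0.569 and 0.582 under DMSO.

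Gene by gene, 84 members passed the low-count filter and RPL10L, a retrogene paralog known from testis, had no count in any library. Under TMM scaling, 41 members were raised, 1 was lowered and 42 were not called at an adjusted p under 0.05 (edgeR's quasi-likelihood test, adjusted over 18229 genes), where 18.5% of all tested genes were raised and 16.8% lowered. The median log2 change of the tested members was 0.20, against 0.0023 over all tested genes. All DSF/Cu libraries lay above all DMSO libraries for 56 members (26% of all genes) and below them for 3 (25.2% of all genes), and the groups overlapped for 25. The called rises were small, from 0.16 for RPL12 to 0.68 for RPL15 on the log2 scale.

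**Figure D1:**
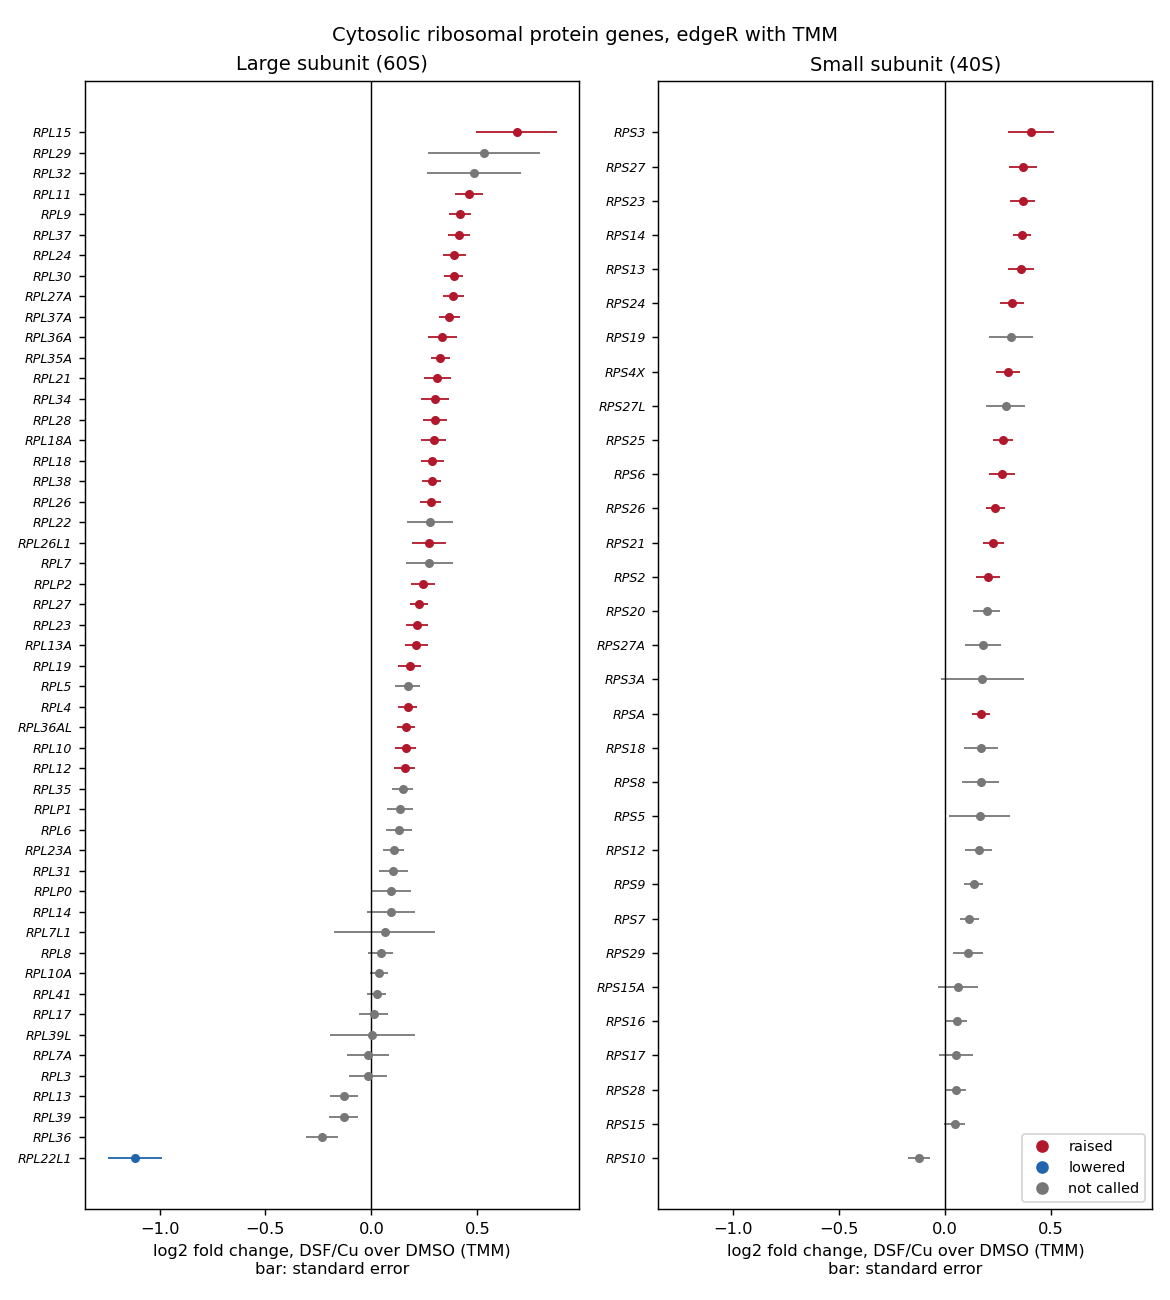
Log2 fold change of DSF/Cu over DMSO with TMM scaling (x axis) for each ribosomal protein gene (y axis), large subunit left and small subunit right; points are estimates, bars standard errors, red raised, blue lowered and grey not called, and 2 members are left out, one of them RPL3L, which had under 50 counts in every library. Most members lie between 0 and 0.5 and RPL22L1 stands alone at -1.12; under total-count scaling the same members centre on 0.016 and many signs change.

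The direction of the family as a whole depended on the scaling. With total counts, 13 members were raised and 8 lowered (12.9% and 26.7% of all genes), the median member change was 0.016 and the median over all genes was -0.18. With libraries scaled so that the members summed to the same count in each, 11 were raised and 10 lowered relative to the family (12.1% and 27.4% of all genes). With limma on log2(FPKM + 1) after scaling to a common sum, 2 of 83 members were raised and 25 lowered, against 12.1% raised and 45.8% lowered of all genes, and the median member change was -0.090. With quantile-normalised FPKM, 10 were raised and 18 lowered (21.1% and 27.8% of all genes). Total-count groups did not overlap for 24 members that were higher and 16 that were lower under DSF/Cu (18.5% and 35.5% of all genes).

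Relative to the median of all tested genes, the members' median was higher by 0.20 under TMM, by 0.20 under total counts and by 0.17 with FPKM scaled to a common sum. A library scaling shifts every gene by nearly the same amount, so the equal values under TMM and total counts are no check of this gap. With quantile-normalised FPKM the members' median was higher by 0.025. The gene filter also moved the gap, to 0.097 with none and 0.23 with 1 CPM in 3 libraries (edgeR with TMM). For FPKM as deposited with no filter it was 0.038. Over 12 scalings or tests, 2 members were raised in all 12 (RPL11 and RPL37) and 1 was lowered in all 12 (RPL22L1). The share of all genes called in all 12 was not computed. A further 9 members, RPL9, RPL24, RPL27A, RPL30, RPL35A, RPL37A, RPS13, RPS14 and RPS23, were raised in 10 or 11 of the 12. Called in opposite directions under different scalings were 13 members, namely RPL5, RPL10, RPL12, RPL19, RPL23A, RPL35, RPL36AL, RPLP1, RPS2, RPS7, RPS9, RPS12 and RPSA, and 13 others were never called.

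**Figure D2:**
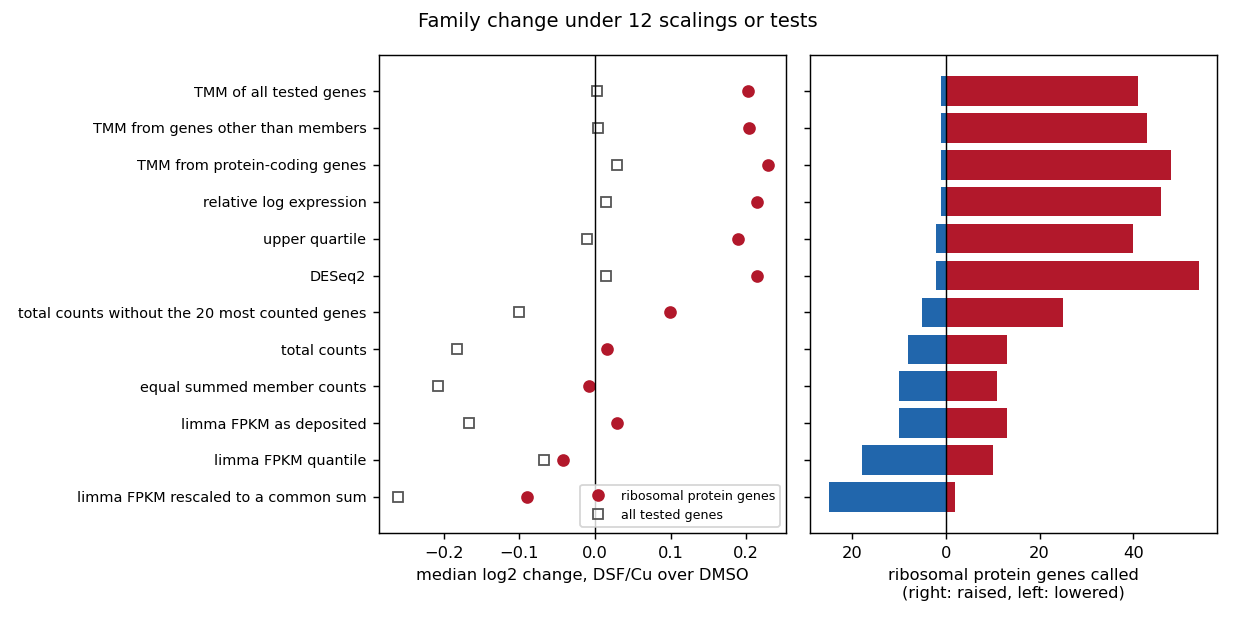
Median log2 change of DSF/Cu over DMSO for ribosomal protein genes (red circles) and all tested genes (open squares) under 12 scalings or tests (left), and the number of ribosomal protein genes called raised (right of 0) or lowered (left of 0) in each (right). TMM gives 41 raised and 1 lowered, total counts 13 and 8, and FPKM scaled to a common sum 2 and 25.

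RPL22L1, a paralog of the 60S protein RPL22, was the one member called lowered under every scaling. Its levels were 23.7, 32.0 and 29.8 CPM in the DSF/Cu libraries and 57.3, 60.7 and 67.3 CPM in the DMSO libraries. All 3 treated libraries lay below all 3 controls, with means of 28.5 ± 4.31 and 61.8 ± 5.10 CPM (SD, n = 3 each), 2.17-fold lower under DSF/Cu. The log2 change was -1.12 ± 0.13 (SE) with an adjusted p of 0.0011 by edgeR's quasi-likelihood test, and it lay between -1.34 and -1.09 over the 12 scalings. Its parent RPL22 had 547.4, 532.7 and 436.9 CPM under DSF/Cu and 398.1, 388.5 and 464.7 CPM under DMSO, so the groups overlapped. The log2 change of RPL22 was 0.28 ± 0.11 (SE, edgeR adjusted p = 0.092). In mouse, Rpl22 is known to repress the expression of its paralog.

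The ratio of paralog to parent within a library does not depend on scaling. RPL22L1 counts were 4.32%, 6.00% and 6.82% of RPL22 counts in the DSF/Cu libraries and 14.4%, 15.6% and 14.5% in the DMSO libraries. Every treated library was below every control, and the mean ratio was 2.64-fold lower under DSF/Cu, a log2 difference of -1.40 (exact permutation test, two-sided, p = 0.1, the smallest that 3 against 3 allows, and 0.3 adjusted over 6 pairs). RPL36AL, a paralog of RPL36A, stood at 81.9%, 84.5% and 84.9% of its parent under DSF/Cu and 101.9%, 95.0% and 87.4% under DMSO. The groups again did not overlap (log2 difference -0.18, exact permutation p = 0.1, adjusted 0.3). Here the paralog itself was called raised under TMM, as was RPL36A. RPL36AL had means of 266.8 CPM under DSF/Cu and 238.3 CPM under DMSO (log2 change 0.16, edgeR adjusted p = 0.024). Without any 1 DMSO library or DSF/Cu library 2 its adjusted p was 0.057 to 0.076 (edgeR). With total counts its value was -0.023, not called. For the other 4 pairs with counts the groups overlapped, and the log2 differences were -0.23 for RPL7L1 over RPL7, -0.0022 for RPL26L1 over RPL26, 0.096 for RPL39L over RPL39 and -0.085 for RPS27L over RPS27.

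**Figure D3:**
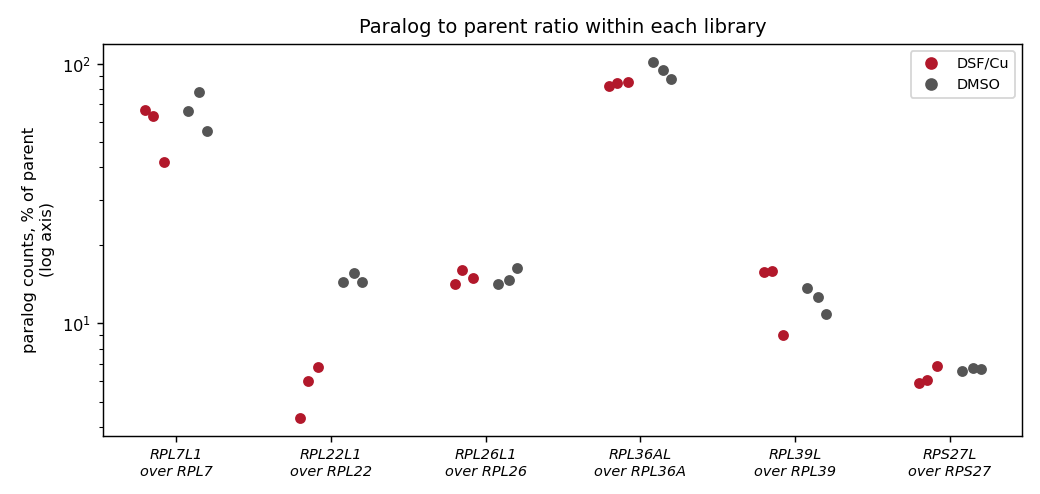
Counts of a paralog as a percentage of the counts of its parent (y axis, log scale) in each library, DSF/Cu in red left of DMSO in grey, for 6 pairs (x axis). RPL22L1 lies between 4.32% and 6.82% under DSF/Cu and between 14.4% and 15.6% under DMSO, the widest gap of the 6 pairs.

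Among the other paralogs, RPL26L1 had 79.5, 83.2 and 77.3 CPM under DSF/Cu and 60.5, 65.7 and 72.6 CPM under DMSO. The groups did not overlap and the rise of 0.27 was called under TMM (edgeR adjusted p = 0.039), but not with total counts, where it was 0.087. Without DMSO library 1 or 2 or any 1 DSF/Cu library its adjusted p was 0.066 to 0.112 (edgeR). RPS27L, which lacks the pyrimidine start of its parent, had 46.7, 44.0 and 51.5 CPM under DSF/Cu and 35.8, 38.7 and 41.9 CPM under DMSO, without overlap, and narrowly missed the threshold (log2 change 0.29, edgeR adjusted p = 0.0505). RPL3L, the muscle form of RPL3, had 41, 49 and 41 counts under DSF/Cu and 0, 0 and 19 under DMSO. It was not called (edgeR adjusted p = 0.138), and without DMSO library 3 the adjusted p was 0.0046 (edgeR). RPL7L1, a nucleolar assembly factor related to RPL7, and RPL39L, known from testis, did not separate the groups.

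RPL11 and RPL37 kept a called rise under every scaling. RPL11, which with RPL5 and 5S rRNA forms the 5S particle, had 853.7, 803.7 and 768.1 CPM under DSF/Cu and 546.4, 593.3 and 622.6 CPM under DMSO. Every treated library was above every control, a 1.38-fold higher mean with a log2 change of 0.46 ± 0.065 (SE, edgeR adjusted p = 0.0025). It was 0.27 with total counts and 0.17 with FPKM scaled to a common sum. RPL37, a zinc-binding protein of the 60S subunit, had 940.5, 875.5 and 844.8 CPM under DSF/Cu and 654.9, 676.0 and 666.9 CPM under DMSO, a log2 change of 0.41 ± 0.051 (SE, edgeR adjusted p = 0.0015). The treated libraries were again all above the controls, and the lowest change over the scalings was 0.12.

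RPL5, the partner of RPL11 in the 5S particle, had 1199 to 1234 CPM under DSF/Cu and 985.6 to 1117 CPM under DMSO. Its groups did not overlap under TMM, but its log2 change of 0.17 was not called (edgeR adjusted p = 0.061). Its sign turned with total counts (-0.015) and equal summed member counts (-0.038). It also turned with FPKM scaled to a common sum (-0.12) and quantile-normalised FPKM (-0.16). The 2 members of the particle thus had changes of 0.46 and 0.17 in the same fit. Whether they differed from each other was not tested.

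The largest called rise was that of RPL15, a core protein of the 60S subunit. Its levels were 908.8, 1343 and 1230 CPM under DSF/Cu and 565.2, 760.8 and 839.7 CPM under DMSO. The groups did not overlap, but the libraries of each group were spread widely, and the log2 change of 0.68 ± 0.19 (SE, edgeR adjusted p = 0.031) was called in 6 of the 12 scalings, with a lowest value of 0.39. Without DMSO library 1 or 2, or DSF/Cu library 2 or 3, the adjusted p was 0.072 to 0.091 (edgeR). RPS3, a 40S protein at the mRNA entry channel, had 1353, 1075 and 1029 CPM under DSF/Cu and 881.1, 904.8 and 821.0 CPM under DMSO. Its groups did not overlap and its log2 change was 0.41 ± 0.11 (SE, edgeR adjusted p = 0.027), which was 0.060 to 0.087 without DMSO library 1, 2 or 3 (edgeR) and was not called with total counts.

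Others of the larger called rises were tighter between libraries. RPL9, a 60S protein at the base of the P stalk, changed by 0.42. RPL24, RPL30 and RPL27A, all of the 60S subunit, changed by 0.39 each. RPS27 of the 40S subunit changed by 0.37. For each of these 5 the treated libraries all lay above the controls, with edgeR adjusted p between 0.0013 and 0.0059. The sign held under all 12 scalings for the 60S members, while RPS27 turned to -0.094 with quantile-normalised FPKM. RPS14, a 40S protein whose loss underlies the anaemia of the 5q deletion syndrome, had the lowest adjusted p of the family, 0.0010 by edgeR, with 925.1, 898.4 and 892.9 CPM under DSF/Cu and 694.4, 725.3 and 688.6 CPM under DMSO.

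**Figure D4:**
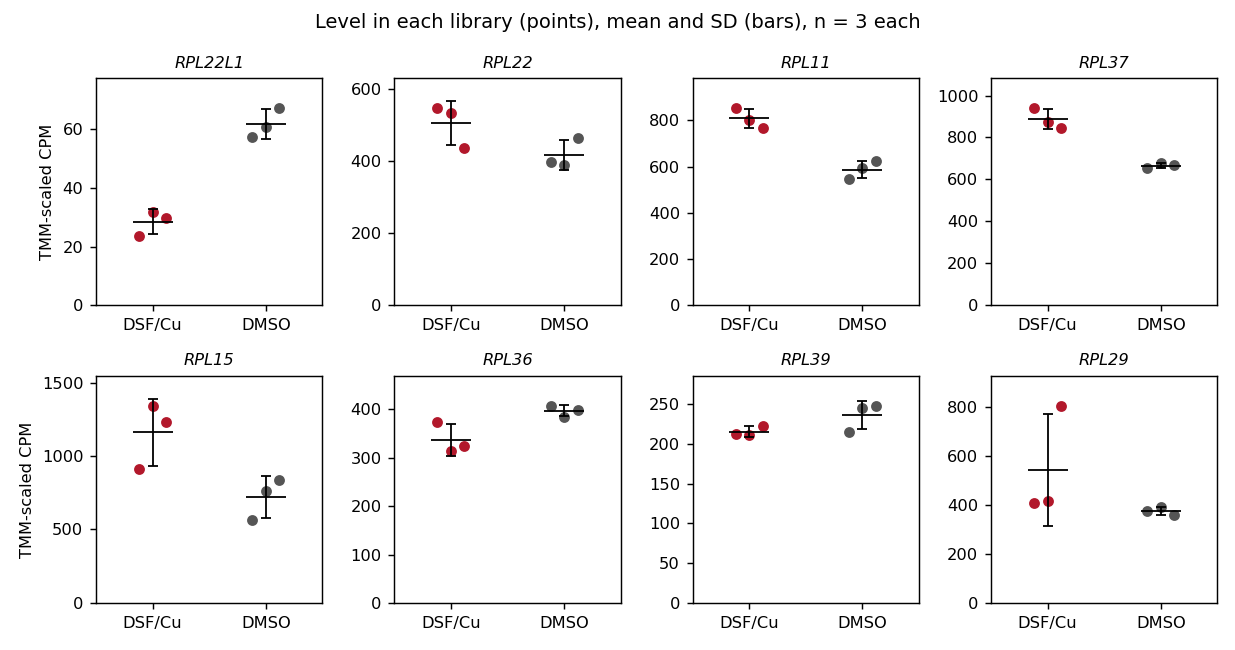
TMM-scaled CPM (y axis, from 0) of 8 members in each library, DSF/Cu in red left of DMSO in grey; points are libraries and bars the mean and SD (n = 3 each). RPL22L1 is lower under DSF/Cu and RPL11, RPL37 and RPL15 are higher without overlap, while RPL29 is high in 1 treated library alone.

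At the low end of the family, RPL36, a 60S protein, had 374.8, 313.2 and 323.9 CPM under DSF/Cu and 407.5, 384.9 and 399.0 CPM under DMSO. All treated libraries were below all controls, and its log2 change of -0.24 ± 0.076 (SE) narrowly missed the threshold under TMM (edgeR adjusted p = 0.0515) and was called with total counts (-0.42, edgeR adjusted p = 0.0033). RPL39, one of the smallest ribosomal proteins, which lines the exit tunnel, had 211.7, 211.6 and 222.8 CPM under DSF/Cu and 215.4, 244.5 and 247.8 CPM under DMSO, with overlap. RPL39, RPL13 and RPS10 had log2 changes of -0.13, -0.13 and -0.12 under TMM, none called. With total counts all 3 were called, at -0.32, -0.32 and -0.31. Relative to the summed family, lowered members were RPL8, RPL10A, RPL13, RPL17, RPL22L1, RPL36, RPL39, RPL41, RPS10 and RPS28.

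Per kilobase of exon, members with over 100 counts in every library ranged from 4.13 FPKM for RPS27L to 786.7 FPKM for RPS18, with a median of 142.9 FPKM over all libraries (n = 83). The gene length by which the deposited FPKM were divided is not given in the sources used here. If it covers all annotated exons, genes with long rare transcripts would read lower, which was not tested. The 5 highest were RPS18, RPL19, RPS12, RPL7A and RPL41. RPS18, at the head of the 40S subunit, had 794.9, 774.3 and 790.6 FPKM under DSF/Cu and 698.1, 798.3 and 864.1 FPKM under DMSO, and the groups overlapped. Of the 5, RPL19 was called raised under TMM (log2 change 0.18, edgeR adjusted p = 0.039), with a total-count value of -0.0050. Its adjusted p was 0.052 to 0.123 without any 1 library other than DSF/Cu library 3 (edgeR). RPS12, RPL7A and RPL41 had TMM values of 0.16, -0.016 and 0.026 on the log2 scale, none called. Across members, change and exon length had a Pearson r of 0.16 and a Spearman rho of 0.19, and change and mean FPKM had 0.16 and 0.021 (n = 83 members that share the same 6 libraries, a description only).

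Under TMM, 14 of 32 small-subunit members and 27 of 52 large-subunit members were raised, with medians of 0.19 and 0.21. Of all tested genes 18.5% were raised. The P stalk, which recruits the GTPase translation factors, consists of RPLP0, RPLP1 and RPLP2 on RPL12. RPLP2 was raised by 0.24 (edgeR adjusted p = 0.016) and RPL12 by 0.16 (edgeR adjusted p = 0.0499), RPLP0 and RPLP1 had values of 0.092 and 0.13 without a call, and the list's median was 0.14. None of the 4 was called with total counts, where the median was -0.042. Of all genes, 12.9% were raised and 26.7% lowered in that fit. RPLP2 was not called without DMSO library 2 or DSF/Cu library 2 (edgeR adjusted p = 0.060 and 0.054), nor RPL12 without any 1 library other than DSF/Cu library 3 (0.105 to 0.137).

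The next lists are given under TMM, where 18.5% of all tested genes were raised and 16.8% lowered. All genes in these lists are members of the family, of which 41 of 84 were raised and 1 lowered. Of 9 exit-tunnel proteins, 3 were raised (RPL19, RPL26 and RPL38) and the median was 0.15. Of 6 proteins of the decoding centre and mRNA path, 4 were raised (RPS2, RPS3, RPS23 and RPS26) and the median was 0.22. RPS2, RPS3, RPS10 and RPS20 are ubiquitinated when ribosomes collide, and 2 of the 4, RPS2 and RPS3, were raised. RPS2 was not called without any 1 DMSO library or without DSF/Cu library 3 (edgeR adjusted p = 0.052 to 0.094). Of 9 further proteins reported to bind MDM2, 6 were raised (RPL23, RPL26, RPS3, RPS14, RPS25 and RPS27), with a median of 0.28. Of 19 genes mutated in Diamond-Blackfan anaemia, 9 were raised and none lowered, with a median of 0.22, next to 0.20 for all tested members. With total counts these 5 lists, in the same order, held 0, 1, 0, 2 and 3 raised genes. They held 1, 0, 1, 0 and 1 lowered genes, where 12.9% of all genes were raised and 26.7% lowered.

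RPS27A encodes a 40S protein fused to ubiquitin, and FAU, which the naming rule leaves out, one fused to a ubiquitin-like protein. RPS27A had a log2 value of 0.18 and was not called (edgeR adjusted p = 0.14). FAU stood at -0.15 without a call (edgeR adjusted p = 0.063) and was lowered with total counts (-0.34), and RACK1, a scaffold of the 40S head that the rule also leaves out, stood at 0.10 without a call.

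Replicates were close for most members, with a median SD of log2 CPM over members of 0.066 under DSF/Cu and 0.069 under DMSO (n = 3 libraries each). A few members departed in 1 library. RPL29, a 60S protein, had 408.7, 416.3 and 806.1 CPM under DSF/Cu and 361.3 to 392.6 CPM under DMSO, and its log2 change of 0.53 was not called (edgeR adjusted p = 0.17). RPL32 reached 979.6 CPM in DSF/Cu library 2, against 580.3 and 632.5 CPM in the other treated libraries and 449.1 to 629.0 CPM under DMSO, and was not called at 0.49. RPS3A had 871.0 CPM in the same library and 553.7 and 558.1 CPM in the other treated ones. RPL7L1 and RPL39L were low in DSF/Cu library 3, at 0.609 and 0.600 of the mean of the other treated libraries on the log scale.

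Ribosomal protein genes have many processed pseudogenes of near-identical sequence, and reads could be split among them in a way the counting method, which is not given in the sources used here, decides. The table held 1144 pseudogene rows named after 77 members, of which 464 had at least 1 count and 49 a mean of at least 10 CPM. Together they had 5.42%, 5.40% and 5.27% of the counts of members plus copies under DSF/Cu and 4.87%, 4.88% and 4.99% under DMSO, higher in every treated library. RPL15P3 had 114.9, 115.3 and 109.3 CPM under DSF/Cu and 42.0, 40.9 and 37.4 CPM under DMSO, 2.82-fold higher, beside the rise of RPL15. RPL9P9 had 498.1, 478.3 and 457.2 CPM under DSF/Cu and 347.2, 376.6 and 407.0 CPM under DMSO, a level close to that of RPL9 itself. With the copies added to their parents, 45 members were raised and 1 lowered (18.6% and 16.8% of all genes), and RPL15 and RPL9 changed by 0.75 and 0.37. Values of members with counted copies are therefore uncertain in how reads were assigned.

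Read-through genes shared exons with 3 members. RPL36A-HNRNPH2 had 0 counts in all DSF/Cu libraries and 90, 0 and 1 under DMSO. RPL17-C18orf32 had 2513, 1773 and 2157 counts under DSF/Cu and 0 in all 3 DMSO libraries, at least 676-fold higher in the lowest treated library against a floor of 3 counts per library (counting error only). RPS10-NUDT3 had 193.6, 64.5 and 163.5 CPM under DSF/Cu and 2.53, 43.0 and 2.36 CPM under DMSO, with every treated library higher. Added to their members, these reads moved RPS10 to 0.083 and RPL17 to 0.17, against -0.12 and 0.010 without them, none of them called under TMM (edgeR). The strand setting is not given, and 30 members share exon bases with a gene on the opposite strand in GENCODE 29, RPL15 with NKIRAS1 and RPL36 with LONP1 among them, while RPL22L1, RPL11 and RPL37 share none with any counted gene.

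**Figure D5:**
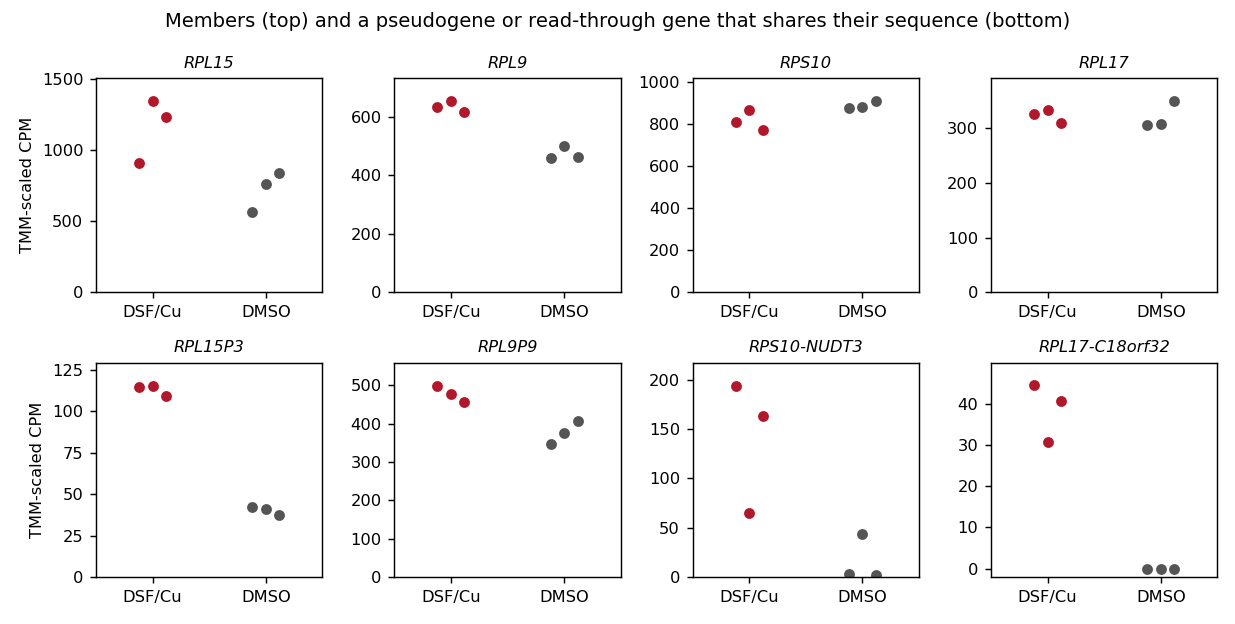
TMM-scaled CPM (y axis) in each library, DSF/Cu in red left of DMSO in grey, of 4 members (top row) and of a pseudogene or read-through gene named after each (bottom row). RPL15P3 is 2.82-fold higher under DSF/Cu and RPL17-C18orf32 has counts under DSF/Cu alone.

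Members with the pyrimidine tract at the annotated start (n = 47) had a median log2 change of 0.24 under TMM and those without it (n = 20) 0.17, with ranges of -1.12 to 0.53 and -0.016 to 0.68. RPL22L1 and RPL36, whose windows are given above, carry the tract and were the members with the lowest values. The largest called rise, that of RPL15, was among the members without it at the annotated start. Whether the annotated starts are the ones used in this line was not tested. The ranges overlapped widely.

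Of 16 other genes whose mRNAs are known to carry a TOP tract, mostly translation factors, 7 were raised and 1 lowered under TMM. Their median was 0.22, and of all tested genes 18.5% were raised and 16.8% lowered. EEF1A1, the elongation factor that delivers aminoacyl-tRNA, had 12824, 12839 and 12265 CPM under DSF/Cu and 10238, 10802 and 10597 CPM under DMSO. It was higher in every treated library, by 0.26 (edgeR adjusted p = 0.0020), but it was lowered with quantile-normalised FPKM (-0.47, limma adjusted p = 0.00078) and stood at -0.030, not called, with FPKM scaled to a common sum. EIF3F and EIF3H, subunits of initiation factor eIF3, had larger rises of 0.84 and 0.77, and EEF2, the translocase, one of 0.37. HNRNPA1, a splicing factor, was the lowered gene (-0.27, edgeR adjusted p = 0.0087). With total counts, 4 of the 16 were raised and 4 lowered, where 12.9% of all genes were raised and 26.7% lowered.

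Of 23 genes that regulate TOP mRNAs or the mTOR pathway, 5 were raised and 4 lowered under TMM, shares near those of all genes (18.5% and 16.8%). With total counts 4 were raised and 9 lowered, where 12.9% of all genes were raised and 26.7% lowered. With FPKM scaled to a common sum, 4 of 22 tested were raised and 10 lowered, against 12.1% and 45.8% of all genes. The raised ones included SESN2, DDIT4 and TSC1, all known inhibitors of mTORC1, and RHEB, its activator. SESN2 had 97.0, 84.3 and 81.9 CPM under DSF/Cu and 14.2, 12.7 and 12.2 CPM under DMSO, a log2 change of 2.75. DDIT4 had 268.9, 246.2 and 243.9 CPM under DSF/Cu and 52.3, 57.4 and 65.8 CPM under DMSO, a log2 change of 2.11. The treated libraries lay far above the controls for both genes. TSC1 changed by 1.13 and RHEB by 0.61. MTOR, RPTOR and MLST8, which encode the core of mTORC1, were lowered (log2 changes of -0.40, -0.43 and -0.79), and so was EIF4EBP2 (-0.25) with edgeR adjusted p between 0.0019 and 0.025. LARP1, which binds the TOP tract, had a log2 value of 0.014 and EIF4EBP1, a translation repressor, one of 0.045, neither of them called. MYC, a transcription factor that drives ribosome genes, had 209.3, 186.8 and 73.1 CPM under DSF/Cu and 7.18, 151.2 and 149.8 CPM under DMSO, with overlap and no call.

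Of 10 chaperones and importins of ribosomal proteins, 4 were raised and 2 lowered under TMM, where the shares of all genes were 18.5% and 16.8%. With total counts the balance turned to 3 raised and 4 lowered, where 12.9% of all genes were raised and 26.7% lowered. With FPKM scaled to a common sum it turned to 2 and 5, against 12.1% and 45.8% of all genes. TNPO1, an import receptor, was raised by 0.88, BCCIP and TSR2, chaperones of single ribosomal proteins, by 0.74 and 0.28 (TSR2 was not called with total counts, edgeR adjusted p = 0.33), and AAR2, better known from the assembly of a spliceosomal particle, by 0.47. IPO9, an importin, and HEATR3, a carrier of RPL5, were lowered, with log2 changes of -0.39 and -0.42. MDM2, the E3 ligase to which free RPL5 and RPL11 bind, had 63.7, 68.2 and 65.6 CPM under DSF/Cu and 63.9, 61.3 and 64.7 CPM under DMSO. The groups overlapped, and none of MDM2, MDM4 and CDKN1A was called under TMM. With FPKM scaled to a common sum MDM2 was called lowered (-0.19, limma adjusted p = 0.049), as were 45.8% of all genes. Of 15 sensors and factors of stalled or collided ribosomes, 5 were raised and 2 lowered under TMM, beside 18.5% and 16.8% of all genes, among them LTN1, the ligase of ribosome quality control (0.45), and GCN1, which binds collided ribosomes (-0.39). The balance of this list turned with scaling. It was 1 raised and 5 lowered with total counts, where 12.9% of all genes were raised and 26.7% lowered. With equal summed member counts it was 0 and 6, against 12.1% and 27.4% of all genes. With FPKM scaled to a common sum it was 0 and 8, against 12.1% and 45.8%.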

How the data were processed

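Poly(A) RNA from 6 samples, 3 per group, was sequenced as paired-end reads. The table used here was deposited by the authors with whole-number counts per gene, unscaled, and FPKM values, scaled for gene length and library size, per the file headers. Aligner and assembler versions in the submitters' processing notes are HISAT2 2.0, Bowtie 0.12.2 and StringTie 1.3.0. How reads were counted, on which strand and against which annotation is not given in the sources used here. A mouse build (mm8) is listed beside these tools, yet the gene IDs are human, and all 85 members occur in GENCODE 29. The Control columns were read as DMSO, since the labels have no other control. Depth, 55563223 to 70883177 counts per library, limits the precision of low genes only.

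Genes were filtered with filterByExpr and compared by the two-sided quasi-likelihood F test of edgeR 4.0.16 (TMM, R 4.3.3). Adjusted p is Benjamini-Hochberg over 18229 genes, with calls under 0.05, and the SE is the absolute log2 change over the square root of F. At an unadjusted p under 0.05, 51 members were raised and 2 lowered. The share of all genes at that threshold was not computed. FPKM of at least 1 was tested with limma 3.58.1 on log2(FPKM + 1), where the fold of low genes is understated. Alternatives were other scalings, filters, DESeq2 1.42.0, a replicate block, leaving out each library, added pseudogene counts and, chosen after seeing the data, added read-through counts. The fits were tested on simulated data. The members and gene lists were chosen with earlier results of these data known. Named genes were the 10 largest called rises and falls, the paralogs, the P stalk and 5S particle, the 5 highest by FPKM, up to 4 called genes per list and members called both ways; RPS14, RPL36, RPL39, RPL13, RPS10, RPL22, RPL29, RPL32 and RPS3A were added after their values were seen. Some genes that these rules name are not reported here.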

Additional observations from a re-analysis of the deposited data

How the results depend on the processing

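Under TMM scaling 41 members were raised and 1 lowered, with a median log2 change of 0.20. The calls were most sensitive to scaling and unit. Total counts gave 13 raised, 8 lowered and a median of 0.016, and total counts without the 20 most counted genes gave 25, 5 and 0.099. Equal summed member counts gave 11, 10 and -0.0075. The FPKM as deposited gave 13, 10 and 0.029, the same counts and 0.029 with a pseudocount of 0.1, and 10, 5 and 0.030 with no filter. FPKM scaled to a common sum gave 2, 25 and -0.090, and quantile-normalised FPKM gave 10, 18 and -0.042. The number lowered was 2 with upper-quartile scaling, with DESeq2 and with the replicate block, and the median was 0.23 with TMM factors from protein-coding genes. DESeq2 raised 54 and the filter for low counts moved the number raised between 32 (none) and 48 (1 CPM in 3 libraries). The calls of all genes moved with the setting too. DESeq2 raised 4364 of 18229 genes, no filter 2967 of 29289 and the 1 CPM filter 3208 of 13970. Without the 20 most counted genes 2793 of 18229 were raised and 4015 lowered. With FPKM as deposited 1945 of 12130 were raised and 4527 lowered. Leaving out 1 library gave 29 to 39 members raised, 1 to 2 lowered and medians of 0.19 to 0.23. It kept RPL22L1 lowered, between -1.21 and -1.00, with adjusted p of 0.0024 to 0.0059 (edgeR). The family's share of counts was 0.091 percentage points higher under DSF/Cu (0.015 to 0.14 with 1 library left out), 0.46 higher without the 20 most counted other genes and -0.38 as a share of summed FPKM.

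Named genes that were called under TMM or under the alternative changed sign as follows, all as log2 changes. With total counts the values were LARP1 -0.17, RPL10 -0.024, RPL12 -0.030, RPL19 -0.0050, RPL36AL -0.023, RPL41 -0.16 and RPSA -0.014. With equal summed member counts they were RPL10 -0.047, RPL12 -0.055, RPL19 -0.031, RPL36AL -0.048, RPL41 -0.18, RPS2 -0.0050 and RPSA -0.038. With FPKM as deposited they were LARP1 -0.15, RPL10 -0.0089, RPL12 -0.016, RPL36AL -0.0089 and RPL41 -0.15, with a pseudocount of 0.1 LARP1 -0.16, RPL10 -0.0090, RPL12 -0.016, RPL36AL -0.0090 and RPL41 -0.15, and with no filter RPL10 -0.0089, RPL12 -0.016 and RPL36AL -0.0089. With FPKM scaled to a common sum they were EEF1A1 -0.030, EIF4EBP1 -0.25, LARP1 -0.27, MDM2 -0.19, RPL10 -0.13, RPL12 -0.14, RPL19 -0.11, RPL23A -0.19, RPL26 -0.014, RPL26L1 -0.016, RPL35 -0.14, RPL36AL -0.13, RPL38 -0.0065, RPL41 -0.27, RPLP1 -0.16, RPLP2 -0.047, RPS2 -0.088, RPS25 -0.018, RPS26 -0.052, RPS7 -0.17, RPS9 -0.15 and RPSA -0.12. With quantile-normalised FPKM they were EEF1A1 -0.47, EEF2 -0.089, RPL12 -0.21, RPL19 -0.35, RPL23A -0.21, RPL35 -0.29, RPL36AL -0.12, RPL41 -0.46, RPL5 -0.16, RPLP2 -0.081, RPS12 -0.32, RPS18 -0.38, RPS2 -0.28, RPS25 -0.059, RPS27 -0.094 and RPSA -0.13. Further named genes that were called in neither fit also turned sign: 15 with total counts (RPL5 among them), 16 with equal summed member counts, 12 with FPKM as deposited, 9 with FPKM scaled to a common sum and 8 with quantile-normalised FPKM. The cause of these changes was not tested.

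Same-numbered libraries of the 2 groups did not deviate together (r of 0.021, -0.0077 and 0.044 for numbers 1, 2 and 3). The labels do not say whether the numbers paired the samples, and 3 libraries per group cannot exclude it. With the replicate block 35 members were raised, and RPL22L1 kept its fall (-1.13, edgeR adjusted p = 0.0051). Counts, FPKM and all scalings come from one quantification of the same 6 libraries and are no independent checks. Data were also simulated with the dispersion of all genes. There edgeR called 0 of 40 genes changed 1.25-fold, 9 of 55 changed 1.5-fold and 22 of 47 changed 2-fold. Those genes were drawn from all tested genes, while most members varied little between libraries (median SD of log2 CPM 0.066 and 0.069). A rise of 0.16 on the log2 scale was called for RPL12. The simulated rates therefore do not tell how often a change in a member would be called. A member that was not called may still have changed, by an amount the simulation cannot give.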

Other observations

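AC138811.2, a gene that shares 218 exon bases with RPS15A on the same strand, had 785, 2639 and 3247 counts under DSF/Cu and 87, 141 and 1305 counts under DMSO, while RPS15A itself had 389.3 to 440.8 CPM under DSF/Cu and 348.0 to 435.9 CPM under DMSO. The gene was chosen after its values were seen and no test was made. Its groups overlap, as do those of RPS15A. MYC in DMSO library 1, at 7.18 CPM, and RPL29 in DSF/Cu library 3, at 806.1 CPM, stood apart from the other libraries of their group, and the cause was not tested.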
